A study of Mus musculus with 4 samples.

Results

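The Wnt ligands of the mouse, their receptors and their secreted antagonists were followed in brain RNA after permanent middle cerebral artery occlusion (PMCAO). The members were all non-control probes whose gene name in the array files begins with Wnt, Fzd, Sfrp or Dkk and a digit, together with those of Lrp5, Lrp6, Wif1, Frzb, Axin2 and Lef1. This gave 57 probes for 43 genes, out of 41174 probes for 27673 gene names. By role they were 19 Wnt ligands, 12 receptors and co-receptors (the Fzd genes, Lrp5 and Lrp6), 6 secreted Wnt-binding proteins (the Sfrp genes, Frzb and Wif1), 4 Dkk antagonists, and the pair Axin2 and Lef1.

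Mice with PMCAO had a nylon filament passed through the carotid artery to block the middle cerebral artery, a model of ischemic stroke. Sham mice had the neck vessels exposed and the wound closed. All were male C57BL/6J mice aged 8 to 12 weeks, all had saline injected into a brain ventricle, and 3 mice per group were killed 6 h or 24 h after that injection. According to the design text the contralateral hemisphere was used, while the sample labels say only brain. All 24 neuron, astrocyte and oligodendrocyte markers tested were well above background on every array.

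Each time had 2 two-colour arrays that set PMCAO RNA against sham RNA. On array 1 the PMCAO RNA carried Cy5 and on array 2 it carried Cy3. The labels do not say whether arrays 1 and 2 hold separate RNA or how the mice of a group were combined, so the p-values measure only the spread between arrays, which may be technical. The share of probes well above background ran from 65.5% to 73.1% over the PMCAO channels and from 66.7% to 72.9% over the sham channels. Values below are log2 ratios of PMCAO over sham unless called a level, which is the log2 intensity of one channel after normalisation. The brightest probe stood for its gene, and errors are standard errors of the limma fit with n = 2 arrays per time. Adjusted p-values are two-sided and corrected over all 19130 genes tested, with 0.05 as the threshold.

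Wnt proteins are secreted, lipid-carrying signals that bind Frizzled receptors and, for the branch that stabilises beta-catenin, the co-receptors Lrp5 and Lrp6. Beta-catenin then enters the nucleus and acts with transcription factors of the TCF/LEF family. Sfrp proteins, Frzb and Wif1 bind Wnt proteins outside the cell, and Dkk proteins act at the co-receptors. In the brain the pathway is known for its roles in neurogenesis, synapses and the upkeep of the blood-brain barrier.

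At 6 h after injection, 1 of the 35 members tested was higher in PMCAO brain, the ligand Wnt10a, and 1 was lower, the ligand Wnt9a. Each is 2.86% of the members, against 0.815% of all genes called higher, 0.0366% called lower and 0.852% in either direction at that time. At 24 h, 4 members were higher, the antagonists Sfrp4 and Sfrp2 and the ligands Wnt10a and Wnt3, which is 11.4% of members against 7.84% of all genes. At 24 h, 3 members were lower, the receptor Fzd10 and the ligands Wnt9a and Wnt2, which is 8.57% of members against 4.52% of all genes, where 12.4% were called in either direction. The median member ratio was 0.002 at 6 h and 0.010 at 24 h, beside -0.005 and 0.0008 over all genes tested, all of them close to 0. In tissue RNA, fewer cells of a type and less RNA per cell cannot be told apart.

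The probes behind these calls are 60 bases long, and the first 30 bases of each are given in the 5′ to 3′ direction, in lower case throughout, to show what was hybridised. They are shown because each call rests on what 1 probe binds, and because probes of related genes could share sequence. Positions are those of mouse build mm7, as the array files give them.
Sfrp4, chr13:18999998-19000057, plus strand: cacagttgtctgtgtgcatactgtgtaaga
Sfrp2, chr3:83878918-83878977, plus strand: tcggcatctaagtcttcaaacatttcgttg
Wnt10a, chr1:75043739-75043798, plus strand: tttcacttaacagatatttatttttgcgct
Wnt3, chr11:103925136-103925195, plus strand: attgtgcgactggatccattcatcgaagtc
Wnt3, other probe, chr11:103926765-103926824, plus strand: atttaataatagtacatgagcgcattgtaa
Fzd10, chr5:127839139-127839198, plus strand: ttgactctctgaattgttaaacaaatgatt
Fzd10, other probe, chr5:127838196-127838255, plus strand: tgcaagaacaggacattcggagcccaaatg
Wnt9a, chr11:59414739-59414798, plus strand: aaacgtctgccggctggtttgtttctgtat
Wnt2, chr6:17929740-17929799, minus strand: aaagagtaagcaagggctttaactaagtga
The longest run of bases that any of these probes shared with a probe of another member gene was 9. Probes were not compared with whole transcripts or with genes outside the family, so binding to other RNA was not tested. The pairs of probes for Wnt3 and Fzd10 start 1629 and 943 bases apart. Where the probes lie within their transcripts was not analysed here.

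Of the 43 genes, 35 passed the filter on dim probes and 31 of these were well above background on both arrays of all 4 RNA groups. The 8 that were not tested were the ligands Wnt1, Wnt2b, Wnt3a, Wnt5a, Wnt8a and Wnt8b and the antagonists Dkk1 and Dkk4. No array was well above background for 5 of them, Dkk1, Wnt3a, Wnt5a, Wnt8a and Wnt8b. For Dkk4, 1 PMCAO array at 24 h was above background and no sham array was, with log2 ratios of -0.17 and 0.61 on arrays 1 and 2, so the arrays lay on opposite sides of 0. In the sham groups of 6 h the tested ligands Wnt16 and Wnt10b were not well above background. Their fitted 6 h ratios, 1.23-fold and 1.05-fold, therefore rest on dim sham signals and are uncertain. Neither gene passed the test at 6 h (adjusted p = 0.485 and 1.0). The filter admits a gene through its brighter group, so counts over the 35 cover only what the arrays could measure.

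**Figure D1:**
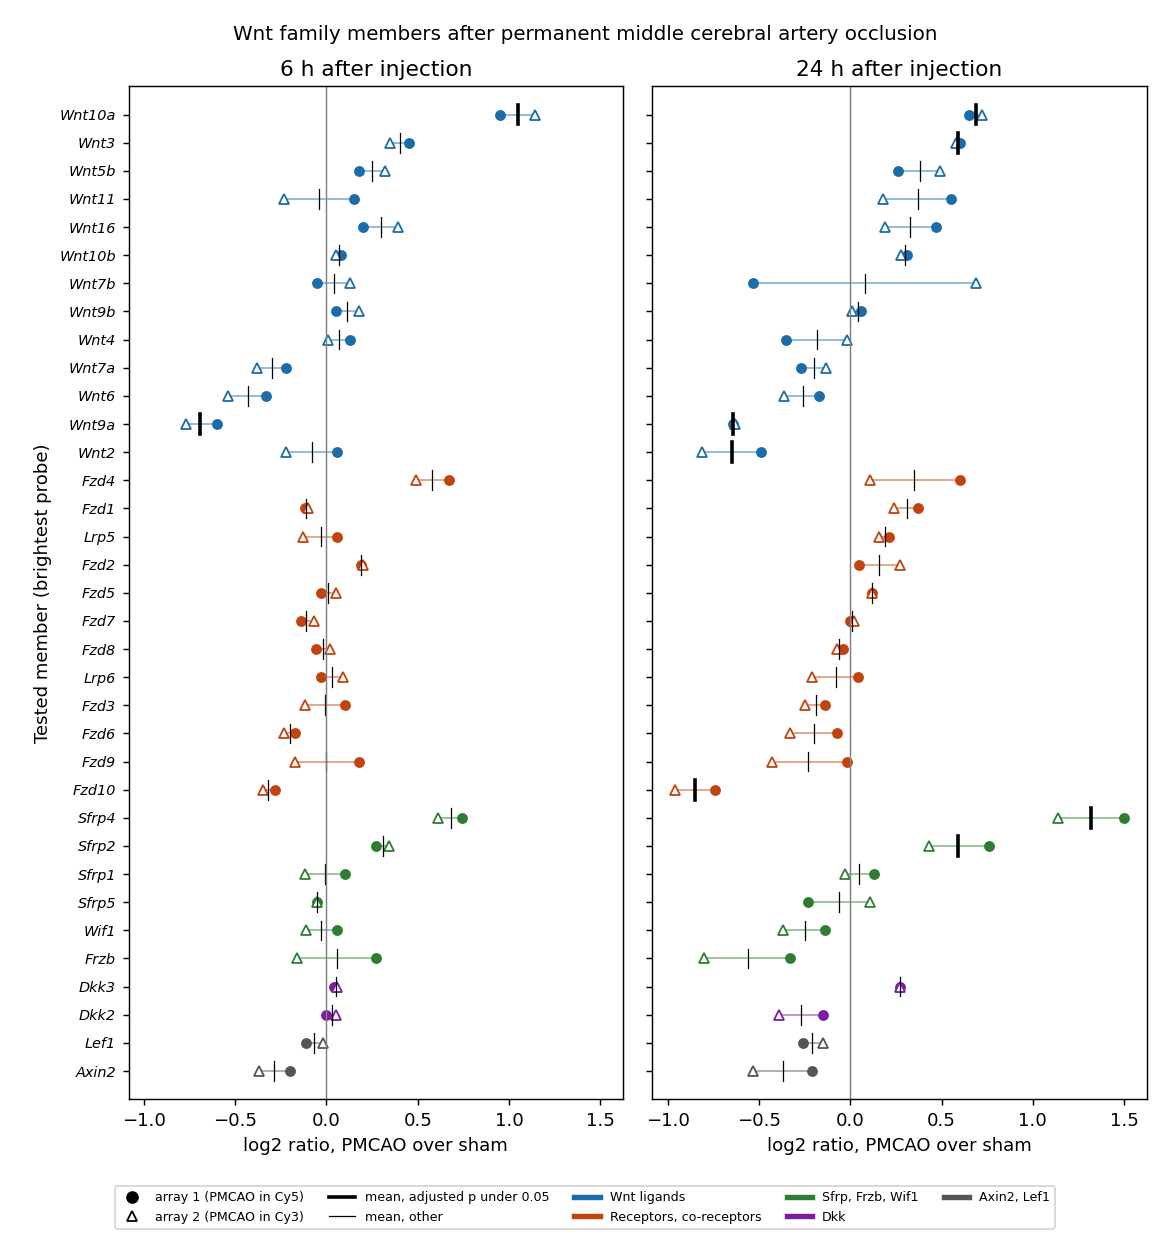
Log2 ratio of PMCAO over sham on each array (points) for the 35 members tested, by role, at 6 h and at 24 h, with a bar at the mean that is thick where the adjusted p is under 0.05. Sfrp4 stands highest and Fzd10 lowest at 24 h, with log2 ratios of 1.32 and -0.85, and the 28 members not past the test at 24 h lie between -0.56 and 0.38.

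Among the ligands, Wnt10a, which acts through beta-catenin and is known for its part in teeth and hair follicles, had the largest ratio of any member at 6 h. Its level was 12.64 and 12.81 on the 2 PMCAO channels of 6 h, against 11.70 and 11.67 in sham. At 24 h it was 12.42 and 12.49 in PMCAO, against 11.76 and 11.77 in sham. All PMCAO channels were therefore above all sham channels. Members past the test were chosen on these same arrays, so such separation, here and below, adds no support to the calls. The log2 ratio was 1.05 ± 0.09 at 6 h (2.06-fold, adjusted p = 0.0148) and 0.69 ± 0.09 at 24 h (1.61-fold, adjusted p = 0.00983). Without array 2 of 6 h, when the spread came only from the 24 h arrays, the 6 h value was 0.95 (adjusted p = 0.0741). The difference between the times was -0.36 ± 0.13 (adjusted p = 0.293).

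Wnt9a, a ligand known for its role in joint formation, was lower at both times by nearly the same amount. Its level was 9.90 and 9.82 in PMCAO at 6 h, against 10.50 and 10.59 in sham, and 9.81 and 9.87 in PMCAO at 24 h, against 10.46 and 10.50 in sham. Every PMCAO channel lay below every sham channel. The log2 ratio was -0.69 ± 0.09 at 6 h (adjusted p = 0.0412) and -0.64 ± 0.09 at 24 h (adjusted p = 0.0111). The 6 h call was lost when the normexp offset was 0 (adjusted p = 0.0954) and when all probes were tested separately (adjusted p = 0.0513). On array 2 or array 1 of 6 h alone, with the spread taken only from the 24 h arrays, the value was -0.77 or -0.60 and did not pass (adjusted p = 0.188 and 0.789). The other Wnt9a probe was not well above background.

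Wnt3, a ligand that acts through beta-catenin and is made in the adult hippocampus, was higher at 24 h. The log2 ratio was 0.45 and 0.35 on the 6 h arrays and 0.60 and 0.58 on the 24 h arrays, so all 4 lay above 0. The fit gave 0.40 ± 0.08 at 6 h (adjusted p = 0.161) and 0.59 ± 0.08 at 24 h ( adjusted p = 0.0119). The other probe disagreed between arrays, with 0.32 and 0.02 at 6 h and 0.63 and -0.10 at 24 h. It gave 0.27 at 24 h (adjusted p = 0.429), and the mean over both probes gave 0.43 (adjusted p = 0.0735), so the call rests on the brighter probe.

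Wnt2, a ligand known for its role in lung and placental development, was lower at 24 h. Its level was 10.23 and 10.03 in PMCAO at 24 h, against 10.72 and 10.84 in sham. At 6 h it was 10.68 and 10.55 in PMCAO, against 10.62 and 10.77 in sham, so the groups overlapped at 6 h and were apart at 24 h. The fit gave -0.08 ± 0.12 at 6 h (adjusted p = 1.0) and -0.65 ± 0.12 at 24 h (adjusted p = 0.0267), and the difference between the times was -0.57 ± 0.17 (adjusted p = 0.214).

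The 11 ligands not past the test at 6 h lay between -0.43 for Wnt6 and 0.40 for Wnt3, and the 9 not past it at 24 h between -0.26 for Wnt6 and 0.38 for Wnt5b. Wnt5b, known mainly for signalling without beta-catenin, came nearest the threshold at 24 h (adjusted p = 0.0667). Wnt7a and Wnt7b, the neural ligands that brain vessels depend on, were not called. Wnt7a gave -0.30 ± 0.09 at 6 h (adjusted p = 0.372) and -0.20 ± 0.09 at 24 h (adjusted p = 0.219). Wnt7b was the least settled member, with -0.53 on array 1 and 0.69 on array 2 of 24 h, so its arrays pointed to opposite sides and its mean of 0.08 has a standard error of 0.27.

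Several Wnt genes lie side by side in pairs, and 2 such pairs had both partners tested. On chromosome 1, Wnt10a was higher at 6 h while its neighbour Wnt6 gave -0.33 and -0.54 on the arrays (-0.43 ± 0.10, adjusted p = 0.207). At 24 h the log2 ratios were 0.69 for Wnt10a and -0.26 for Wnt6 (adjusted p = 0.156). On chromosome 11, Wnt3 gave 0.59 at 24 h and its neighbour Wnt9b gave 0.04 (adjusted p = 0.812). The partners' values therefore stood on opposite sides of 0 in the chromosome 1 pair. The difference between partners was not tested.

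**Figure D2:**
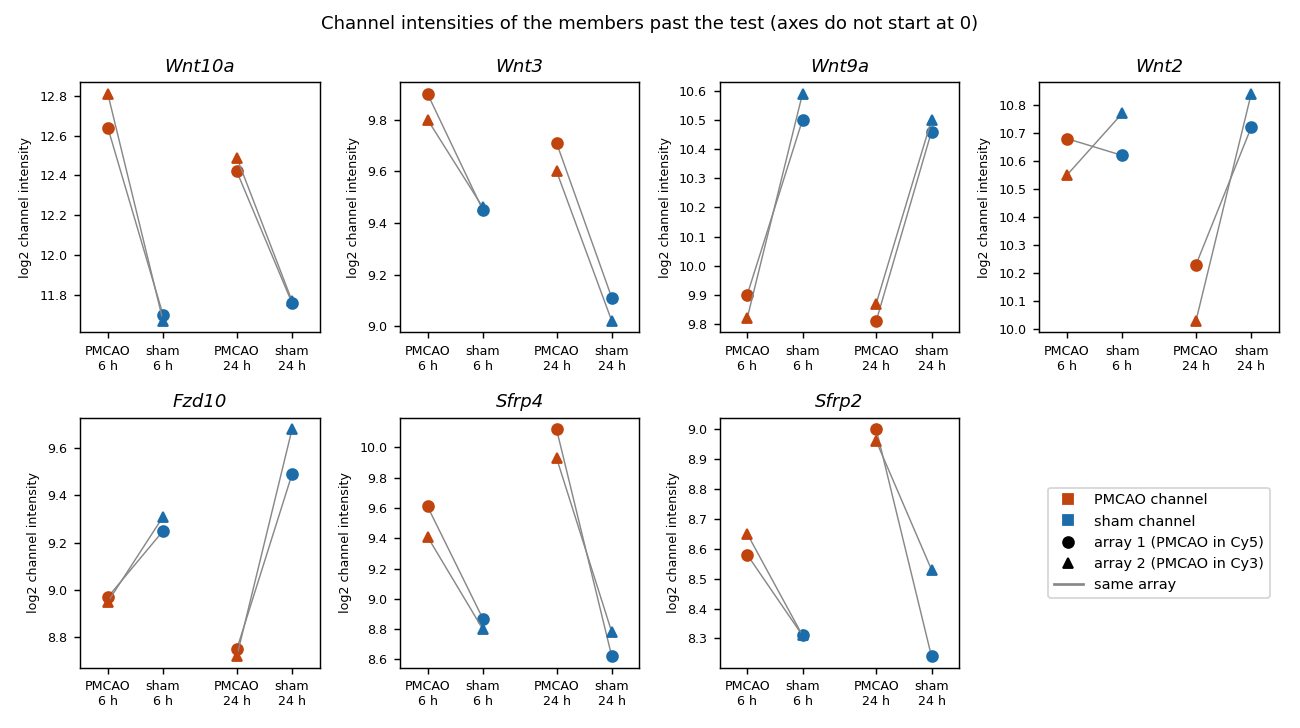
Normalised log2 intensity of each channel for the 7 members past the test at 6 h or 24 h, with PMCAO left of sham at each time and 1 point per array. For each of the 7 the PMCAO and sham points are apart at 24 h, whereas Wnt2 overlaps at 6 h. The 7 were chosen by the test on these same arrays, so points that lie apart add no support.

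Among the 12 receptors and co-receptors, limma called none at 6 h (before adjustment, p was under 0.05 for 1 higher and 1 lower receptor), and Fzd10 alone passed at 24 h. Fzd10 is a Frizzled that can pass on a Wnt signal through beta-catenin. Its level was 8.75 and 8.72 in PMCAO at 24 h, against 9.49 and 9.68 in sham, and 8.97 and 8.95 in PMCAO at 6 h, against 9.25 and 9.31 in sham. PMCAO lay below sham on all 4 arrays, and further at 24 h. The fitted ratio was -0.32 ± 0.09 at 6 h (adjusted p = 0.354) and -0.85 ± 0.09 at 24 h (a ratio of 0.555, adjusted p = 0.00539). The other Fzd10 probe was also lower at 24 h (-0.43 and -0.51 on the arrays, adjusted p = 0.0357 with all probes tested).

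Fzd4, the Frizzled that also serves norrin in retinal and brain vessels, gave 0.67 and 0.49 on the 6 h arrays, and 0.60 and 0.11 on those of 24 h. All 4 were above 0, with a wide gap between the 24 h arrays. The fit gave 0.58 ± 0.14 at 6 h (adjusted p = 0.218) and 0.35 ± 0.14 at 24 h (adjusted p = 0.162). Fzd1 gave -0.12 and -0.10 at 6 h and 0.37 and 0.24 at 24 h, with a fitted value of 0.31 ± 0.08 at 24 h (adjusted p = 0.075). Its arrays lay below 0 at 6 h and above 0 at 24 h. The other 9 receptors and co-receptors ranged from -0.23 for Fzd9 to 0.19 for Lrp5 at 24 h, among them the co-receptors Lrp5 at 0.19 ± 0.09 and Lrp6 at -0.08 ± 0.10. The probes of Fzd2 disagreed, with 0.16 for the brighter probe and -0.32 for the other at 24 h, and neither passed the test.

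The secreted Wnt-binding proteins held the largest ratio of the family at 24 h. Sfrp4, which carries a Frizzled-like domain and binds Wnt proteins, had levels of 10.12 and 9.93 in PMCAO at 24 h, against 8.62 and 8.78 in sham. At 6 h its levels were 9.61 and 9.41 in PMCAO, against 8.87 and 8.80 in sham. Every PMCAO channel was above every sham channel, and the gap was wider at 24 h. The log2 ratio was 0.68 ± 0.11 at 6 h (1.6-fold, adjusted p = 0.0896) and 1.32 ± 0.11 at 24 h (2.5-fold, adjusted p = 0.00248). The difference between the times was 0.64 ± 0.16 (adjusted p = 0.146).

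Sfrp2, a close relative, had log2 ratios of 0.76 and 0.43 on the 24 h arrays and of 0.27 and 0.34 on the 6 h arrays. PMCAO was above sham on all 4. The fit gave 0.31 ± 0.11 at 6 h (adjusted p = 0.469) and 0.59 ± 0.11 at 24 h (1.51-fold, adjusted p = 0.0247).

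The other 4 proteins of this group did not pass at either time in the fit of all 4 arrays without a dye term. Frzb, another Wnt-binding protein with a Frizzled-like domain, gave 0.27 and -0.16 at 6 h and -0.33 and -0.80 at 24 h (-0.56 ± 0.16, adjusted p = 0.0787). Limma called it lower at 24 h when the 24 h arrays were fitted alone, and also with sample number as a block. Wif1, which binds Wnt proteins through a domain of its own kind, gave -0.25 ± 0.10 at 24 h (adjusted p = 0.164). Sfrp1 and Sfrp5 lay between -0.06 and 0.05 at both times. The median of the 6 genes was 0.02 at 6 h and 0.00 at 24 h.

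Some markers of meninges and fibroblasts were also higher at 24 h. Of 9 such markers, 3 were called higher at 24 h (Dcn 1.13, Col3a1 0.91 and Aldh1a2 1.54) and 1 lower (Ogn -0.72). These are 33.3% and 11.1% of the list, against 7.84% and 4.52% of all genes. The rest lay between 0.04 for Igf2 and 0.35 for Lum, and the list's median was 0.26. The summed linear intensity of the 9 was 36705 to 37783 in PMCAO at 24 h, against 24187 to 25573 in sham. Bright markers weigh most in the sum, and Dcn was the brightest on average. At 6 h the sums were closer, 23949 to 24547 in PMCAO against 23390 to 23575 in sham, and limma called no marker (before adjustment, p was under 0.05 for 1 higher and 2 lower markers). The part of these cells in the Sfrp values was not tested.

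Of the Dkk antagonists, Dkk2 and Dkk3 were measured and neither passed. Dkk2, which acts at Lrp5 and Lrp6, gave 0.00 and 0.05 at 6 h and -0.15 and -0.39 at 24 h (-0.27 ± 0.09, adjusted p = 0.135). Dkk3, the divergent member of the family and one that neurons make, gave 0.04 and 0.06 at 6 h and 0.27 and 0.27 at 24 h (0.27 ± 0.08, adjusted p = 0.0904). Their 24 h values thus lay on opposite sides of 0.

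Axin2 and Lef1 are read as targets of the beta-catenin branch, and Axin2 also feeds back on it as a scaffold of the complex that degrades beta-catenin. Axin2 gave -0.20 and -0.37 at 6 h and -0.21 and -0.53 at 24 h (-0.37 ± 0.11 at 24 h, adjusted p = 0.0939). Lef1 gave -0.11 and -0.02 at 6 h and -0.26 and -0.15 at 24 h (-0.21 ± 0.08 at 24 h, adjusted p = 0.18). Both lay below 0 on all 4 arrays without passing the test at either time in the fit without a dye term. With sample number, also the dye orientation, as a block, limma called Axin2 at both times (adjusted p = 0.0288 and 0.00189). That fit also called Lef1 at 24 h (adjusted p = 0.0306). In all it called 12 members lower and 11 higher at 24 h, Fzd1, Fzd4, Dkk2 and Dkk3 among them. Of the 19130 genes tested it called 3684 lower and 3914 higher at that time. The gain in calls was therefore not particular to Axin2 and Lef1. Of the dimmer Lef1 probes, the one that passed the filter gave 0.17 and -0.23 at 6 h and 0.04 and -0.36 at 24 h.

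**Figure D3:**
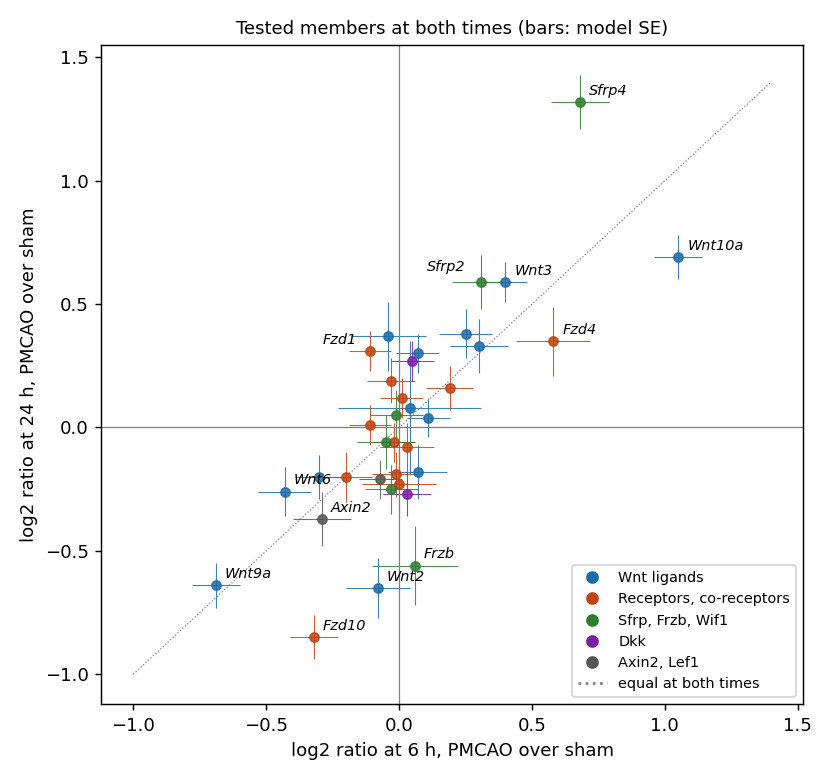
Log2 ratio of PMCAO over sham at 24 h (vertical axis) against 6 h (horizontal axis) for the 35 members tested, each with its standard error and coloured by role, with a dotted line where both times are equal. Wnt10a reaches 1.05 at 6 h and 0.69 at 24 h, while Sfrp4, Fzd10 and Wnt2 lie farther from 0 at 24 h than at 6 h, with no difference between the times past the test in the fit without a dye term.

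Limma, fitted without a term for dye orientation, called no member for the 24 h minus 6 h difference, where 1.29% of all genes were called higher, 0.298% lower and 1.58% in either direction. Before adjustment, p was under 0.05 for 2 members with a higher and 4 with a lower difference. The nearest was Fzd10 with -0.53 ± 0.13 (adjusted p = 0.143). A fit with sample number, also the dye orientation, as a block called 3 members higher and 4 lower. Over all genes it called 1685 and 1530. Across arrays, 18 of the 35 members lay on the same side of 0 on all 4, which is 51.4% against 29.8% of all genes. Of these, 11 lay above 0 and 7 below. On the 24 h arrays alone 30 members kept 1 side (85.7%, against 61.6% of all genes), and on the 6 h arrays 22 (62.9%, against 56.3%). The members' ratios reached at least 0.5 in size for 4 of 35 at 6 h (11.4%, against 2.12% of all genes) and for 8 at 24 h (22.9%, against 9.55%). These shares were not tested.

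With 1 array left out, the time it belonged to has a single array, and the spread then comes wholly from the arrays of the other time, so the lone array is assumed to vary like those. Under that assumption all 4 higher and 3 lower members of 24 h still passed whichever array was left out. Leaving out an array, of either time, also brought other members past the threshold at 24 h. When each array was only centred on its median, without loess, limma called no member at either time. Before adjustment, p was under 0.05 for 0 members at 6 h and for 1 higher member at 24 h. Over all genes that setting called 0 at 6 h, and 13 higher and 0 lower at 24 h. Each value called in the fit with loess kept its sign.

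The rest of the pathway was read from lists of other genes. Of 26 genes for Wnt secretion, agonists and surface regulators, limma called none higher and 3 lower at 24 h (before adjustment, p was under 0.05 for 0 higher and 5 lower genes). Rspo1 and Rspo2, secreted proteins that strengthen Wnt signals through Lgr receptors, gave -0.58 ± 0.09 (adjusted p = 0.0151) and -0.39 ± 0.09 (adjusted p = 0.046). Sostdc1, an antagonist that binds Lrp co-receptors and BMP proteins, gave -0.70 and -1.32 on the arrays (-1.01 ± 0.18, adjusted p = 0.0227). At 6 h none of the 26 passed (before adjustment, p was under 0.05 for 1 higher and 2 lower genes). The 3 lower genes are 11.5% of the list, against 4.52% of all genes called lower at 24 h. The list's medians were 0.00 at 24 h and -0.02 at 6 h. By their brightest probes, the genes not called ranged from -0.34 for Lgr4 to 0.34 for Lgr5 at 24 h, so Rspo2 lay close to them. Dimmer probes could differ at 24 h, with 0.52 for Kremen1 against -0.05 for its brightest, and -0.16 and 0.11 for Lgr4.

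Of 23 genes of the beta-catenin destruction complex and signal relay, Frat1 alone passed at 24 h, with 0.52 and 0.49 on the arrays (0.51 ± 0.08, adjusted p = 0.0178). This 1 gene is 4.35% of the list, against 7.84% of all genes called higher at 24 h. Frat1 binds the kinase GSK3 and keeps it from beta-catenin. Of the dimmer Frat1 probes, one gave 0.47 and the other -0.01 at 24 h. The test read only the brightest probe of each gene. For Csnk1d that probe gave 0.44 and -0.40 on the 24 h arrays, while the dimmer probes gave 0.12, 0.80 and 0.61. The list's median was 0.02, and none of the 23 passed at 6 h (before adjustment, p was under 0.05 for 2 higher and 0 lower genes).

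Of 20 nuclear partners and general targets, Jun was higher at 6 h (0.89 ± 0.08, adjusted p = 0.0175), and 4 were higher and 2 lower at 24 h. At 6 h this is 5% of the list, against 0.815% of all genes called higher. At 24 h, 20% of the list was higher and 10% lower, against 7.84% and 4.52% of all genes. The higher genes at 24 h were Fosl1 (2.06 ± 0.18), Cd44 (1.70 ± 0.08), Myc (1.27 ± 0.09) and Jun (0.65 ± 0.08). All 4 are also well known as genes of injury, growth and immediate early responses outside the Wnt pathway. The lower genes were Bcl9, a beta-catenin partner (-0.41 ± 0.09), and Tnfrsf19 (-0.37 ± 0.08), a receptor of the TNF family. The dimmer Bcl9 probe gave -0.17, and the dimmer Myc probes gave 1.14 and 0.46. The median of the 20 was 0.01, beside the members Axin2 and Lef1 at -0.37 and -0.21.

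Of 11 planar polarity genes, which orient cells through a Frizzled branch without beta-catenin, Prickle1 (-0.52 ± 0.09, adjusted p = 0.0202) and Celsr1 (-0.50 ± 0.11, adjusted p = 0.0474) were lower at 24 h. These 2 genes are 18.2% of the list, against 4.52% of all genes called lower at 24 h. The other Prickle1 probe gave 0.04. Limma called none of the 11 at 6 h, and 0 had a p under 0.05 before adjustment.

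The list of brain endothelial genes that respond to Wnt signals had 17 genes, Axin2 and Lef1 among them, and moved in both directions at 24 h. The transporter of amino acids Slc38a5 was lower at 6 h (-0.90 and -1.15 on the arrays, -1.02 ± 0.10, adjusted p = 0.0168) and at 24 h (-1.87 and -1.92, -1.89 ± 0.10, adjusted p = 0.00045). The thyroid hormone and organic anion transporter Slco1c1 (-0.93 ± 0.09) and the transcription factor Sox17 (-0.56 ± 0.10) were lower at 24 h. The transcription factor Sox7 (0.89 ± 0.13), the monocarboxylate transporter Slc16a1 (0.58 ± 0.11) and the lipid transporter Mfsd2a (0.51 ± 0.09) were higher at 24 h. At 24 h, 17.6% of the list was called higher and 17.6% lower, against 7.84% and 4.52% of all genes. At 6 h, 5.88% was called lower, against 0.0366% of all genes. Slc2a1 (0.87 ± 0.21, adjusted p = 0.0547) and Cldn5 (0.75 ± 0.18, adjusted p = 0.0518) narrowly missed the threshold at 24 h. The dimmer probes gave 0.16 for Sox7 and -0.23 for Sox17 at 24 h, closer to 0 than the brighter ones. The list's median was -0.13 at 6 h and 0.09 at 24 h. General endothelial markers also moved at 24 h, 5 of 10 higher and 1 lower, against 7.84% and 4.52% of all genes. Their summed intensity was 52281 to 57035 in PMCAO at 24 h against 38197 to 41519 in sham. At 6 h the sums went the other way, 37505 to 39429 in PMCAO against 40612 to 42485 in sham, with Slco1a4 called lower. The part of endothelial cells in these values was not tested.

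**Figure D4:**
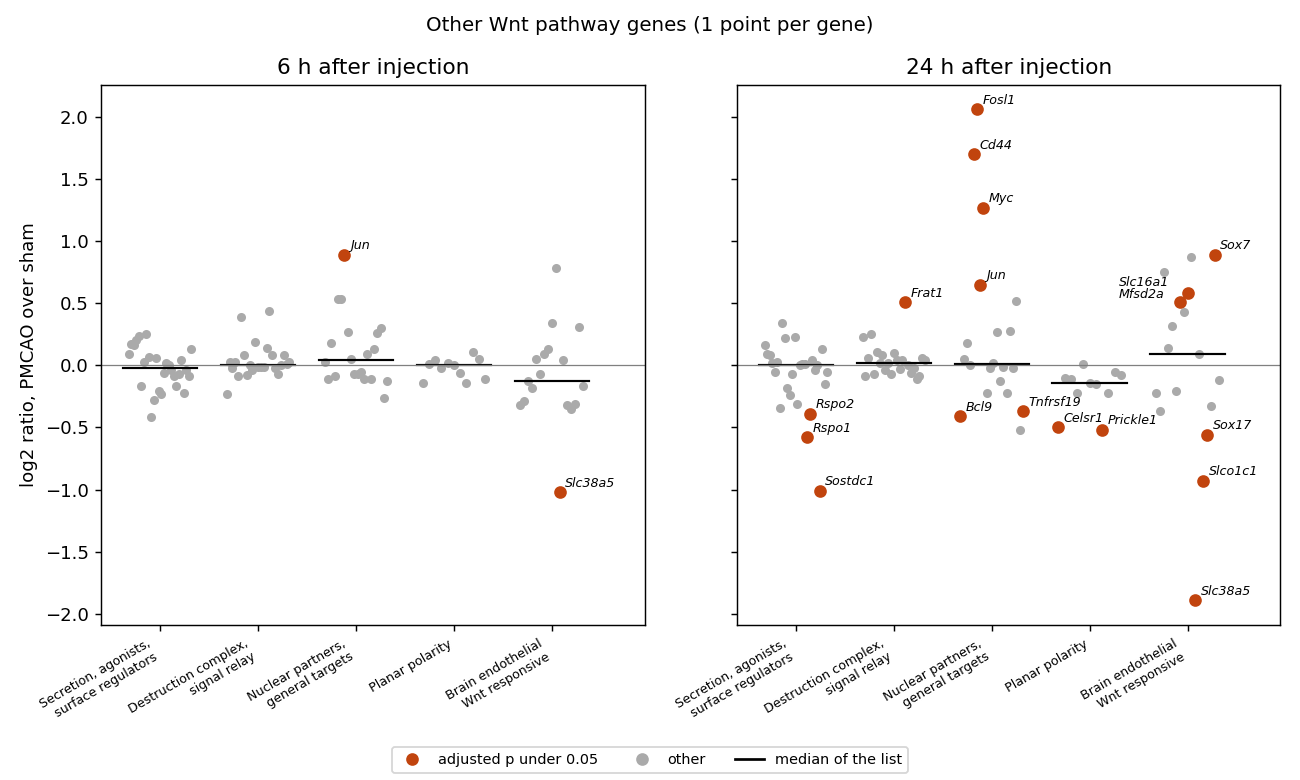
Log2 ratio of PMCAO over sham at 6 h and at 24 h for 1 point per gene of the 5 pathway lists, with a black line at each list's median and genes past the test named. At 6 h only Jun and Slc38a5 are past the test, and the medians at 24 h lie between -0.14 and 0.09.

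Markers of other cell types also differed between PMCAO and sham brain. Beside the counts below, 0.815% of all genes were called higher and 0.0366% lower at 6 h. At 24 h these shares were 7.84% and 4.52%. Of the 8 neutrophil and monocyte markers, 4 were higher by 6 h and 6 by 24 h, with summed intensities of 65032 to 76871 in PMCAO at 24 h against 1871 to 2120 in sham, and of 12981 to 13926 in PMCAO at 6 h against 2827 to 3201 in sham. The neutrophil marker Mmp8 was not well above background in sham at either time. Microglial markers were lower for 4 of 8 at 24 h, with sums of 29386 to 31936 in PMCAO against 34737 to 37462 in sham. Markers of oligodendrocyte precursors summed to 15687 to 17489 in PMCAO at 24 h against 23891 to 24166 in sham. Of these 5 only Gpr17 was called, lower at both times (-0.90 at 24 h), and as the brightest it weighs most in the sum. At 24 h the others gave -0.31 for Cspg4, -0.30 for Olig1, 0.00 for Olig2 and 0.05 for Pdgfra. Of 9 neuronal markers limma called none at either time, and 0 had a p under 0.05 before adjustment. Their sums at 24 h were 225587 to 229277 in PMCAO against 249568 to 254014 in sham, lower in PMCAO on both arrays. The brightest, Snap25, Nefl and Syt1, weigh most in these sums and gave -0.14, -0.28 and -0.29 at 24 h. Tubb3 and Map2 gave -0.16 and -0.27, while Rbfox3, Gad1, Gad2 and Slc17a7 gave 0.23, 0.09, 0.09 and 0.08. Of 8 astrocyte markers, Aldh1l1, Gjb6 and Sox9 were higher at 24 h, while the sums overlapped, 111865 to 139663 in PMCAO against 129219 to 149485 in sham. Of 10 choroid plexus and ependymal markers, Kcne2 was lower at 24 h, and of 7 oligodendrocyte markers none was called. The part of these cells in the values of Wnt10a, Wnt3, Wnt9a, Wnt2 and Fzd10 was not tested.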

How the data were processed

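Brain RNA of mice with PMCAO and of sham mice was measured on 4 two-colour Agilent arrays on 1 slide with 1 scan. The authors deposited 1 scanner table per array, in which each spot has intensity values for both channels. Per the file headers, Agilent's Feature Extraction software (version 9.5.3.1) made them. A further series table deposited by the authors holds signed values whose size equals the ratio of the processed Cy5 over Cy3 signals on all probes (tolerance 0.0051). Its column medians were -0.96, 0.96, -0.91 and 0.95, and what the sign stands for and whether values were centred further are unknown, so it served only as an alternative.

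Mean signals were background-corrected with normexp (offset 50) and normalised by loess within each array, giving control spots weight 0, with limma 3.58.1 (R 4.3.3). Between 112 and 142 outlier-flagged spots per array were removed, and 0 to 2 saturated spots kept. Ratios were turned to PMCAO over sham, and spots of a probe were averaged. A gene entered the test if at least 1 of the 4 RNA groups had both its arrays well above background. All 4 arrays were fitted together with 1 coefficient per time (2 residual and 3.53 prior degrees of freedom). Probe names came from a RefSeq table of GRCm38.p6 through accession (22951), symbol (6659) or older symbol (3106), and 8458 kept the name in the files. Another 3 probes, whose names in the files are older symbols of Fzd3, Fzd5 or Lrp6, are left out by the rule for members. Channel levels used Aquantile scaling between arrays. The precision of all values is limited by the number of arrays.

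The members and the gene lists were chosen with earlier results of these data known. Values on every array are given for members past a test and for the 2 smallest p-values per role and time. The fits were tested on simulated arrays. Alternatives were other background corrections, normalisations, filters, probe rules, a moderation trend, each time alone, sample number as a block and single arrays left out. Python 3.11.15 and matplotlib 3.10.9 drew the figures.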

Additional observations from a re-analysis of the deposited data

Results flagged for a closer look

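Fzd1 lay below 0 on both 6 h arrays and above 0 on both 24 h arrays, with a 24 h minus 6 h difference of 0.42 ± 0.12 that missed the threshold (limma, adjusted p = 0.191). Wnt4 lay above 0 on both 6 h arrays and below 0 on both 24 h arrays, with a difference of -0.25 ± 0.15 (adjusted p = 0.563). Among the pathway genes outside the family, the difference between the times passed the test for Myc (1.00 ± 0.12, adjusted p = 0.0286) and for Cd44 (1.17 ± 0.12, adjusted p = 0.0173), both higher in PMCAO brain at 24 h than at 6 h relative to sham. Dkk4, which was not tested, was well above background on 1 PMCAO array of 24 h and on no sham array.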

How the results depend on the processing

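The 4 higher and 3 lower members of 24 h passed under every setting run except median centring, which gave 0 and 0, and the mean over probes, which lost Wnt3. Median centring also gave 0 higher and 0 lower at 6 h, where it called 0 genes of any kind. At 24 h it called 13 genes higher and 0 lower. At 6 h the processed signals and the deposited series table each gave 2 higher members, a normexp offset of 0 and all probes tested separately each gave 0 lower, and the 6 h arrays alone gave 6 higher and 4 lower. With the sample number as a replicate block, which here is also the dye orientation, 6 members were higher and 5 lower at 6 h. At 24 h these counts were 11 and 12, and for the difference 3 and 4. Over all 19130 genes tested the block called 1131 higher and 571 lower at 6 h. It called 3914 and 3684 at 24 h, and 1685 and 1530 for the difference, so the calls rose over all genes. Same-numbered arrays deviated together (correlation 0.718). The labels tie the number to dye orientation and to no shared RNA, batch or day. The fit without the block leaves any dye effect in the spread between arrays, and the block was run as an alternative. Leaving out 1 array gave 0 to 6 higher and 0 to 4 lower members at 6 h, 4 to 8 and 4 to 9 at 24 h, and 0 to 3 and 0 to 4 for the difference, and a dye effect does not cancel at the time that lost an array, whose spread then comes only from the other time. The cause of these changes was not tested. No called value changed sign, and of the values named by gene 475 kept their side of the threshold, 44 moved past it and 14 fell short of it. Signal over background limits the 8 untested members.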
